A study of Homo sapiens with 20 samples.

Results

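The genes described here encode 10 immune ligands: CD274 (PD-L1), CD47, CD40, ICAM1, PVR (CD155), MICA, MICB, ULBP2, CEACAM1 and CD68. They were picked by name, with earlier results of these data known, and each probe annotated to 1 of them was taken from both tables of array intensities. This gave 14 of 48803 probes, for 9 of the 10 genes, in the miR-4728-3p experiment, where ULBP2 had no named probe, and 18 of 47323 probes, for all 10 genes, in the miR-1 experiment.

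The arrays measured total RNA of MCF10A, an immortalized, non-tumorigenic human mammary epithelial cell line, after lipid transfection. The first experiment had 6 arrays of cells given a miR-4728-3p mimic and 6 arrays of its controls, and the second had 4 arrays of cells given a mimic of hsa-miR-1-3p and 4 arrays of its controls. A mimic is a synthetic double-stranded RNA that raises the level of 1 miRNA far above what the cell makes. RNA was taken at 32 hours by the methods, and the labels give 100 nM for all oligonucleotides unless stated otherwise, while the methods also name a lower dose and do not say which one the arrays had. The controls of the miR-4728-3p arrays are labelled as a non-targeting control siRNA and those of the miR-1 arrays as a non-targeting control. All cells of every group were transfected, so no group shows untreated cells. MCF10A is 1 cell line, and the arrays held no immune cells that could engage these ligands.

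Epithelial cells carry on their surface proteins that are read by T cells and natural killer (NK) cells. CD274 binds the inhibitory receptor PD-1, CD47 binds SIRPA on phagocytes and inhibits engulfment, and CEACAM1 is a homophilic adhesion molecule with an inhibitory role on lymphocytes. PVR is bound by the activating receptor CD226 and the inhibitory receptors TIGIT and CD96, and MICA, MICB and ULBP2 are stress-induced ligands of the activating NK receptor NKG2D. CD40 is a costimulatory receptor for CD40L, and ICAM1 is the adhesion ligand of the leukocyte integrins. CD68 differs from the other 9, since it is mainly a glycoprotein of lysosomes and endosomes that is widely used to mark macrophages, so the name of surface ligand describes it poorly. Interferons raise several of these genes in many cell types through factors that include IRF1 and IRF9, and NF-kB acts on ICAM1 and CD40.

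The sequences of the transfected miRNAs are shown because they are the agents tested. They are the RefSeq mature sequences on GRCh38.p14, printed 5′ to 3′, with the seed at bases 2 to 8 in capitals, and for miR-4728-3p a further line with bases 6 to 12 in capitals, the internal stretch to which the study assigned targeting.
miR-4728-3p, seed: cAUGCUGAccucccuccugccccag
miR-4728-3p, internal stretch: caugcUGACCUCccuccugccccag
miR-1-3p, seed: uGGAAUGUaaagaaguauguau
The mature miR-4728-3p has 25 bases, from MIR4728 at chr17:39726537-39726561 on the plus strand, and the 22 bases of miR-1-3p come from MIR1-1 on chromosome 20 and MIR1-2 on chromosome 18. The seeds of both miRNAs differ, and neither stretch in capitals of miR-4728-3p is shared with miR-1-3p.

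Values are log2 intensities after background correction and quantile normalization within each experiment. The signal that probes for unexpressed genes give was read from the probes of olfactory receptor genes, which breast epithelial cells are not expected to transcribe: 456 probes in the miR-4728-3p experiment and 457 in the miR-1 experiment. Their 95th percentile on an array is called the background ceiling. It lay at 6.56 to 6.64 on the miR-4728-3p mimic arrays and 6.59 to 6.70 on their controls, and at 6.25 to 6.30 on the miR-1 mimic arrays and 6.25 to 6.29 on their controls. Median raw intensities were 113 to 134 on miR-4728-3p mimic arrays and 101 to 135 on their controls, and 107 to 121 on miR-1 mimic arrays and 92 to 114 on their controls. All 8 measured basal epithelial markers, KRT5 and KRT14 among them, exceeded the ceiling on every array of both experiments. Levels of different probes are not compared here, because each probe has its own brightness.

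In the cells with the miR-4728-3p mimic CEACAM1 and CD68 rose, MICB rose slightly, and no probe of the 10 genes was called lower. Of the 11 probes, for 7 of the genes, that were bright enough to be tested, 5 were called higher at an adjusted p under 0.05 by limma (3 of CEACAM1, 1 of CD68 and 1 of MICB) and 0 lower (at an unadjusted p under 0.05, 1 was lower, that of PVR). Over all 20910 tested probes 3.23% were called higher and 2.93% lower. Counted by genes, 3 of the 7 tested rose, and 3.95% of all 11817 tested genes were called higher. The 5 probes became 3 without mimic 1, 2 or 5 or control 1, 4, 5 or 6, since the calls of MICB and of the third CEACAM1 probe were lost there. The spread of every probe over the arrays of this experiment is plotted next.

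**Figure D1:**
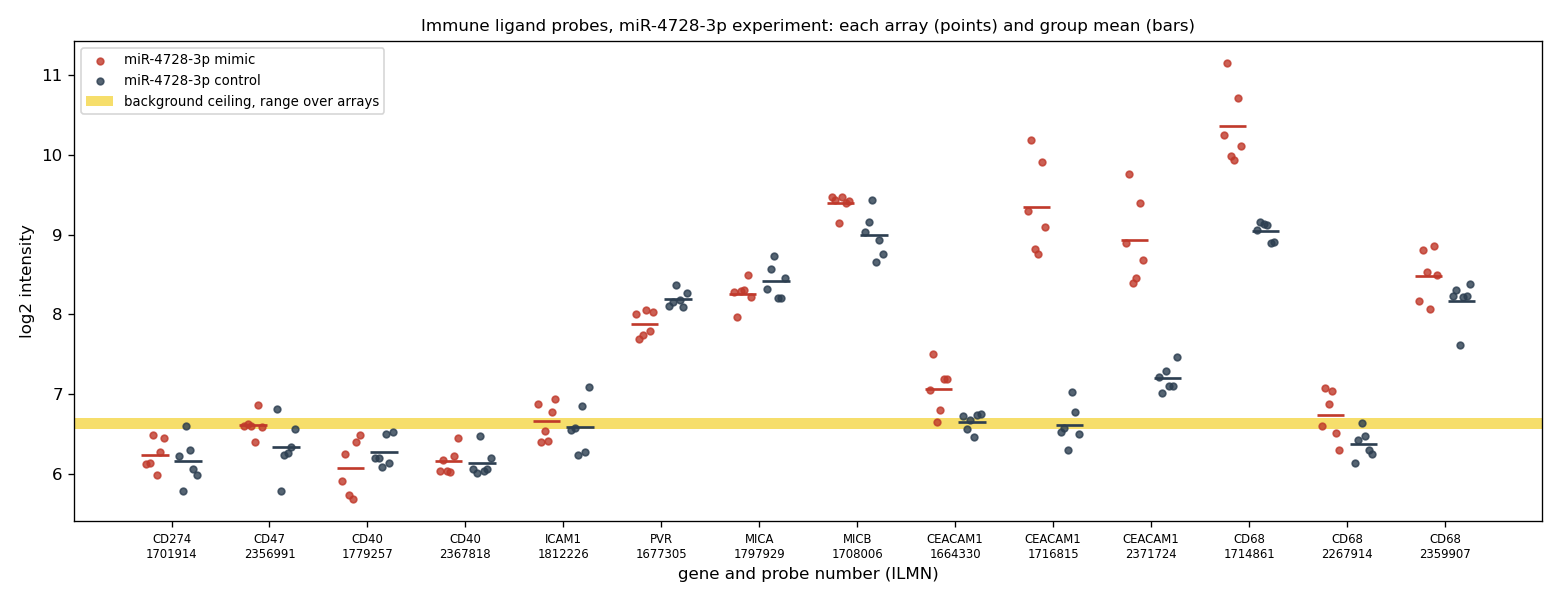
Log2 intensity of each of the 14 probes for the immune ligands (x axis, gene and probe number) on the 6 miR-4728-3p mimic arrays (red, left of each pair) and the 6 control arrays (dark, right). Points are arrays, short bars are group means and the yellow band is the range of the background ceiling over the arrays, 6.56 to 6.70. The CEACAM1 probes ILMN_1716815 and ILMN_2371724 and the CD68 probe ILMN_1714861 have all mimic points above all control points, and CD274 and CD40 lie in or under the band.

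CEACAM1 (chr19:42507306-42528481 on GRCh38.p14) had the largest log2 fold change of the 7 tested genes. The probe ILMN_1716815 read 9.30, 10.19, 8.82, 8.76, 9.91 and 9.10 on the 6 mimic arrays and 6.53, 6.58, 6.31, 7.03, 6.78 and 6.50 on the 6 control arrays. Every mimic array was above every control array, and mimic arrays 2 and 5 were the highest. The means were 9.35 ± 0.58 with the mimic and 6.62 ± 0.25 in controls (SD, n = 6 each), a log2 fold change of 2.72 ± 0.19 (SE, adjusted p = 1.71e-10, limma). Only 2 of the 6 control arrays exceeded the background ceiling at this probe, so the fold is uncertain. With each control array at no less than its ceiling, the mean level with the mimic was 6.22-fold higher. That value is no lower bound. The 95% interval of the log2 fold change began at 2.33, and over the 10 alternatives this change was 2.32 to 3.27.

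The second CEACAM1 probe, ILMN_2371724, was above the ceiling on all 12 arrays. It read 8.90, 9.76, 8.39, 8.46, 9.39 and 8.68 with the mimic, against 7.22, 7.02, 7.29, 7.10, 7.11 and 7.47 in controls. The groups did not overlap, which held in this direction for 2.41% of all tested probes. The log2 fold change was 1.73 ± 0.17 (SE), a 3.32-fold higher level (adjusted p = 1.15e-07, limma). The third probe, ILMN_1664330, read 7.05, 7.50, 6.65, 6.80, 7.19 and 7.19 with the mimic and 6.73, 6.57, 6.68, 6.46, 6.74 and 6.76 in controls. These groups overlapped, and the log2 fold change of 0.41 ± 0.12 (SE) passed narrowly (adjusted p = 0.0467, limma). That call was lost in 6 of 9 alternatives and without any 1 array other than mimic 3 or mimic 4, with adjusted p of 0.0789, 0.131, 0.107 and 0.0997 without mimic 1, 2, 5 and 6, and of 0.0578, 0.103, 0.073, 0.118, 0.0576 and 0.0579 without control 1 to 6 in turn. The first pair of CEACAM1 calls held without any single array, at log2 fold changes of 2.56 to 2.84 and 1.56 to 1.84.

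CEACAM1 belongs to a family of closely similar genes. Of its relatives on the list of other ligands only CEACAM6, an adhesion protein without a cytoplasmic tail, was bright enough to be tested, at 7.68 ± 0.19 with the mimic and 7.61 ± 0.26 in controls (SD, n = 6 each, adjusted p = 0.853, limma). Whether the CEACAM1 probes also bind other family members was not tested.

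CD68 (chr17:7579638-7582111) rose at 1 of its 3 probes. ILMN_1714861 read 10.25, 11.15, 9.99, 9.93, 10.71 and 10.11 with the mimic and 9.06, 9.16, 9.13, 9.11, 8.89 and 8.91 in controls. All mimic arrays stood above all control arrays, as for 2.41% of all tested probes, again with mimic 2 and mimic 5 on top. The means were 10.36 ± 0.48 with the mimic and 9.04 ± 0.12 in controls (SD, n = 6 each), a log2 fold change of 1.31 ± 0.16 (SE) or 2.48-fold (adjusted p = 1.94e-06, limma). ILMN_2359907, also above the ceiling on all 12 arrays, averaged 8.49 ± 0.32 with the mimic and 8.16 ± 0.27 in controls, with overlapping groups (log2 fold change 0.32, 95% interval 0.03 to 0.61, adjusted p = 0.236, limma). ILMN_2267914 exceeded the ceiling on 4 mimic arrays and 1 control array (log2 fold change 0.36, adjusted p = 0.106, and 0.0282 without mimic 6, limma). The 3 probes of CD68 thus had the same sign and very unequal sizes, and which transcripts each of them detects was not tested.

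The macrophage marker role of CD68 made it useful to look at other blood cell markers. Of 16 such genes 15 had a probe and 5 were bright enough to be tested, and 0 of the 5 were called in either direction by limma (0 also at an unadjusted p under 0.05). CD14, the lipopolysaccharide coreceptor, was bright in both groups, at 10.09 ± 0.20 with the mimic and 10.21 ± 0.27 in controls. CSF1R, the receptor of macrophage colony-stimulating factor, averaged 7.25 ± 0.20 with the mimic and 7.47 ± 0.14 in controls. CD14 and CSF1R were the only blood cell markers above the ceiling on every array, and the mean level over the list was 6.35 to 6.52 on mimic arrays and 6.40 to 6.52 on control arrays. PTPRC, the pan-leukocyte marker CD45, did not pass the filter on low values. Of the endothelial markers only PECAM1 was tested, with a log2 fold change of 0.08 (adjusted p = 0.782, limma), and of the 8 basal epithelial markers 0 were called by limma (0 at an unadjusted p under 0.05). Over all tested genes 3.95% were called higher and 3.82% lower.

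The mimic arrays differed among themselves in the same order for CEACAM1 and CD68. Array 2 was highest, followed by arrays 5, 1 and 6, at both ILMN_1716815 and the CD68 probe ILMN_1714861. Over the 12 arrays the tested genes whose pattern was most like these probes were XAF1, an inhibitor of XIAP, for CEACAM1 ILMN_1716815 (Pearson r 0.993), RTP4, a chaperone of receptor transport, for ILMN_2371724 (0.993), and CYP2J2, an arachidonic acid epoxygenase, for CD68 (0.994). These values describe 12 arrays that fall into 2 groups, and within the 6 mimic arrays they were 0.968, 0.986 and 0.996, against 0.599, 0.59 and 0.519 within the 6 control arrays. For the third CEACAM1 probe ITGA10 was most alike (0.918 over the 12 arrays).

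**Figure D2:**
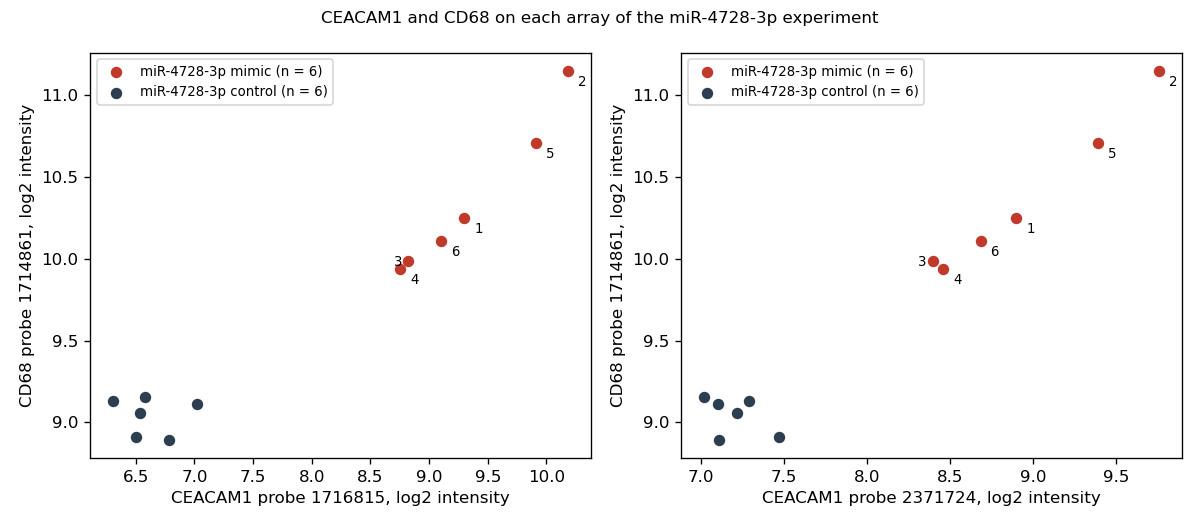
CD68 probe ILMN_1714861 (y axis, log2 intensity) against the CEACAM1 probes ILMN_1716815 (left) and ILMN_2371724 (right; x axes, log2 intensity) on the 6 miR-4728-3p mimic arrays (red, numbered by replicate) and the 6 control arrays (dark). Mimic arrays 2 and 5 are highest on both axes, and the control arrays form a separate group at CD68 levels of 8.89 to 9.16.

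Among the ligands of NKG2D, MICB (chr6:31494918-31511124) was higher with the mimic by a small margin. It read 9.47, 9.44, 9.15, 9.47, 9.40 and 9.42 on mimic arrays and 9.03, 9.15, 9.43, 8.66, 8.93 and 8.76 on control arrays. The groups overlapped through control 3, which lay with the mimic arrays, and mimic 3, the lowest of its group. The log2 fold change was 0.40 ± 0.12 (SE) or 1.32-fold (adjusted p = 0.0441, limma). The call rests on the setting: it was lost in 3 of 10 alternatives (adjusted p 0.0668 to 0.0897), and leaving out 1 array kept it only for mimic 3, control 2 and control 3. Without the others the adjusted p was 0.0919 for mimic 1, 0.0825 for mimic 2, 0.0845 for mimic 4, 0.0785 for mimic 5, 0.0776 for mimic 6, 0.0591 for control 1, 0.127 for control 4, 0.0812 for control 5 and 0.11 for control 6. FYTTD1, an mRNA export adaptor, had the pattern most like MICB (Pearson r 0.961 over the 12 arrays).

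MICA, the close relative of MICB, averaged 8.26 ± 0.17 with the mimic and 8.42 ± 0.21 in controls (SD, n = 6 each). Its groups overlapped and the log2 difference of -0.16 had a 95% interval of -0.39 to 0.07 (adjusted p = 0.558, limma). No named probe for ULBP2 was present in this experiment.

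PVR (chr19:44643910-44666162) had lower readings with the mimic that did not pass the test. It read 8.01, 7.69, 7.74, 8.05, 7.79 and 8.03 with the mimic, against 8.11, 8.16, 8.37, 8.18, 8.09 and 8.27 in controls. No mimic array reached the lowest control array, a separation seen in this direction for 2.03% of all tested probes. The log2 fold change was -0.31 (95% interval -0.51 to -0.11, adjusted p = 0.0649, limma). It passed in 4 of 10 alternatives, at adjusted p values of 0.0351 to 0.0436, and in none of the 12 fits that left out 1 array (0.0509 to 0.151).

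The checkpoint ligand CD274 and the costimulatory receptor CD40 stayed in the range of background probes and were not tested. CD274 read 6.13, 6.14, 6.49, 5.99, 6.27 and 6.45 with the mimic and 6.23, 5.79, 6.60, 6.31, 6.06 and 5.99 in controls, and only control 3 exceeded its ceiling. Both CD40 probes were at or below the ceiling on all 12 arrays, at 6.08 ± 0.34 and 6.16 ± 0.16 with the mimic and 6.28 ± 0.19 and 6.14 ± 0.18 in controls. A change of these genes below what background probes show was not detectable.

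ICAM1 and CD47 were close to background as well. ICAM1 exceeded the ceiling on 3 of 6 mimic arrays and 2 of 6 control arrays, and the groups overlapped (log2 fold change 0.07, 95% interval -0.22 to 0.35, adjusted p = 0.896, limma). The CD47 probe ILMN_2356991 read 6.61, 6.63, 6.60, 6.40, 6.87 and 6.59 with the mimic and 6.81, 5.79, 6.24, 6.27, 6.34 and 6.57 in controls. Its mean over all arrays passed the filter although the control mean alone did not. The log2 fold change of 0.28 did not pass the test (adjusted p = 0.288, limma). The other CD47 probe was named in the miR-1 table only. In all, 6 of the 14 probes were above the ceiling on every array of this experiment, 2 were at or below it on every array, and the other 6 were mixed.

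In the cells with the miR-1 mimic PVR rose, and no other probe of the 10 genes was called. Of 10 tested probes, for 8 of the genes, 1 was called higher and 0 lower by limma (at an unadjusted p under 0.05, 2 were higher, PVR and MICA, and 1 was lower, of CD47). Of all 22030 tested probes 1.14% were called higher and 0.872% lower.

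**Figure D3:**
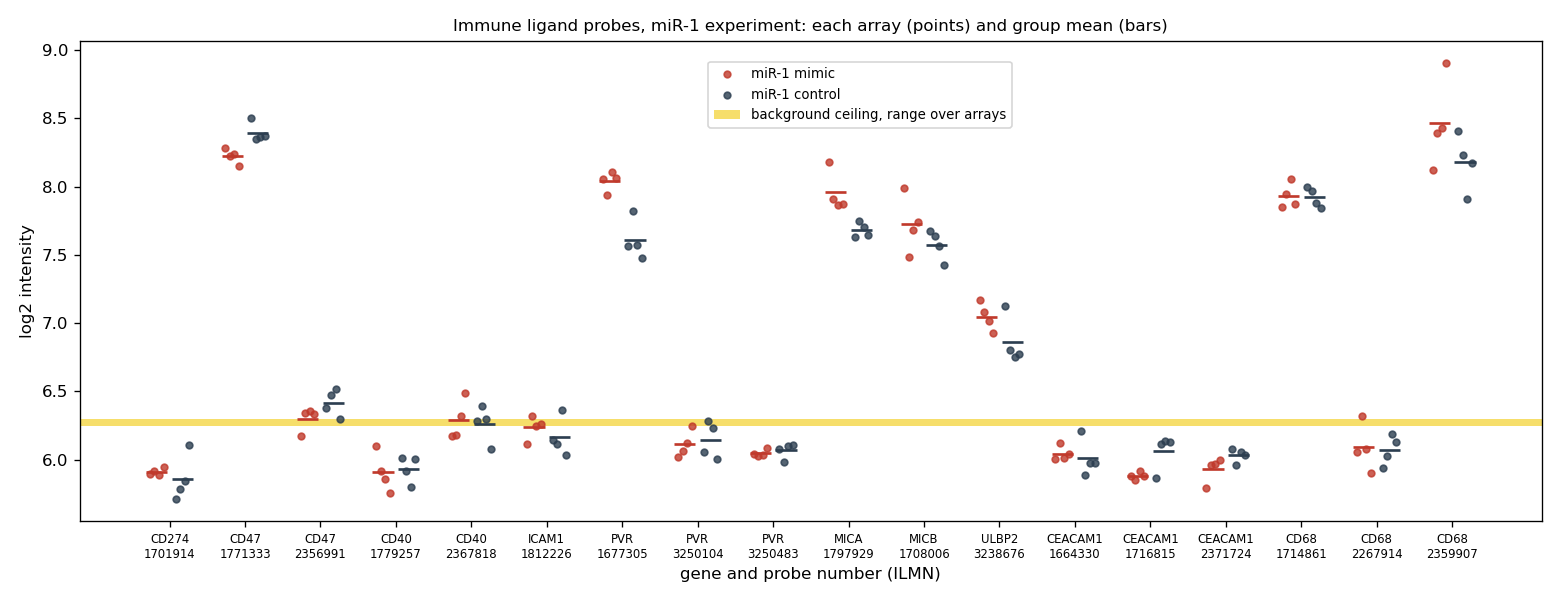
Log2 intensity of each of the 18 probes for the immune ligands (x axis, gene and probe number) on the 4 miR-1 mimic arrays (red, left of each pair) and the 4 control arrays (dark, right). Points are arrays, short bars are group means and the yellow band is the range of the background ceiling over the arrays, 6.25 to 6.30. The PVR probe ILMN_1677305 has all mimic points above all control points, and all CEACAM1 points lie under the band.

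The PVR probe ILMN_1677305 read 8.05, 7.94, 8.10 and 8.07 on miR-1 mimic arrays and 7.57, 7.82, 7.57 and 7.48 on their controls. The groups did not overlap, which held in this direction for 4.00% of all tested probes. The means were 8.04 ± 0.07 with the mimic and 7.61 ± 0.15 in controls (SD, n = 4 each), a log2 fold change of 0.43 ± 0.09 (SE) or 1.35-fold (adjusted p = 0.0171, limma). Adjusted p was 0.0966 with median scaling in place of quantile normalization. It was 0.0655 without mimic 3, 0.0579 without control 1, 0.0521 without control 3 and 0.0706 without control 4. The other 2 PVR probes of this table, ILMN_3250104 and ILMN_3250483, averaged 6.11 and 6.05 with the mimic and 6.14 and 6.07 in controls, within background. MARS2, the mitochondrial methionyl-tRNA synthetase, had the pattern most like PVR (Pearson r 0.991 over the 8 arrays).

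The NKG2D ligands were measured above background in the miR-1 experiment. MICA read 8.18, 7.91, 7.87 and 7.88 with the mimic and 7.63, 7.75, 7.71 and 7.65 in controls, without overlap, as for 4.00% of all tested probes. It missed the threshold (log2 fold change 0.27, 95% interval 0.09 to 0.46, adjusted p = 0.143, limma). MICB averaged 7.73 ± 0.21 with the mimic and 7.58 ± 0.11 in controls (SD, n = 4 each, adjusted p = 0.621, limma). ULBP2, named only here, read 7.17, 7.08, 7.01 and 6.93 with the mimic and 7.13, 6.80, 6.75 and 6.77 in controls (log2 fold change 0.18, 95% interval -0.02 to 0.39, adjusted p = 0.461, limma). The direction of all 3 log2 differences was upward and none passed the test.

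CD47 was well measured only by ILMN_1771333, at 8.28, 8.22, 8.24 and 8.15 with the miR-1 mimic and 8.50, 8.35, 8.36 and 8.37 in controls. The mimic arrays lay below all control arrays, as for 4.44% of all tested probes, and the log2 difference of -0.17 did not pass (adjusted p = 0.345, limma). CD68 averaged 7.93 ± 0.09 with the mimic and 7.92 ± 0.07 in controls at ILMN_1714861, a log2 fold change of 0.01 with a 95% interval of -0.16 to 0.17. CD68 ILMN_2359907 gave 0.28 (adjusted p = 0.452, limma). CEACAM1 was at or below the ceiling at all 3 probes on all 8 arrays, for example 5.88, 5.85, 5.92 and 5.88 with the mimic and 5.87, 6.11, 6.14 and 6.13 in controls at ILMN_1716815. CD274 also stayed at or below the ceiling on all 8 arrays. The CD40 probe ILMN_2367818 and ICAM1 passed the filter near background, with adjusted p of 0.952 and 0.815 (limma). Among the marker lists, the basal epithelial genes KRT14 (log2 fold change 0.72, adjusted p = 0.000213, limma) and CDH1 (0.49, adjusted p = 0.00481) and the blood cell marker CSF1R (0.36, adjusted p = 0.0274) rose with miR-1, 2 of 8 and 1 of 6 tested genes, and PECAM1 gave -0.27 (adjusted p = 0.241). Of all genes tested with miR-1, 1.45% were called higher and 1.24% lower. Over the 18 probes 7 were above the ceiling on every array and 6 at or below it on every array.

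The effects of both mimics were then set against each other at the 14 probes that both tables hold, of which 7 passed the filter in both. The difference of the log2 fold changes (miR-4728-3p minus miR-1) was called at 2 of the 7, against 4.97% of all 17093 shared probes tested. For PVR it was -0.74 (95% interval -1.02 to -0.46, adjusted p = 0.000535, limma), from a log2 fold change of -0.31 with miR-4728-3p and 0.43 with miR-1. For CD68 ILMN_1714861 it was 1.30 (95% interval 0.86 to 1.75, adjusted p = 0.000152, limma), from 1.31 with miR-4728-3p and 0.01 with miR-1. Both were called in all 6 alternatives and in all 20 fits that left out 1 array. The array version differs between both experiments, so the miRNA and the experiment cannot be told apart in these differences.

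The remaining differences did not pass: MICA gave -0.43 (95% interval -0.75 to -0.12, adjusted p = 0.118, limma), CD47 0.39 (0.02 to 0.76, adjusted p = 0.288), MICB 0.25 (-0.10 to 0.60, adjusted p = 0.574), ICAM1 -0.01 (-0.40 to 0.39, adjusted p = 0.994) and CD68 ILMN_2359907 0.04 (-0.41 to 0.50, adjusted p = 0.967). CEACAM1 fell below the filter in the miR-1 experiment. There the arrays of both groups were at background at all 3 probes, so no effect of miR-1 on CEACAM1 was measured and no difference is given.

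**Figure D4:**
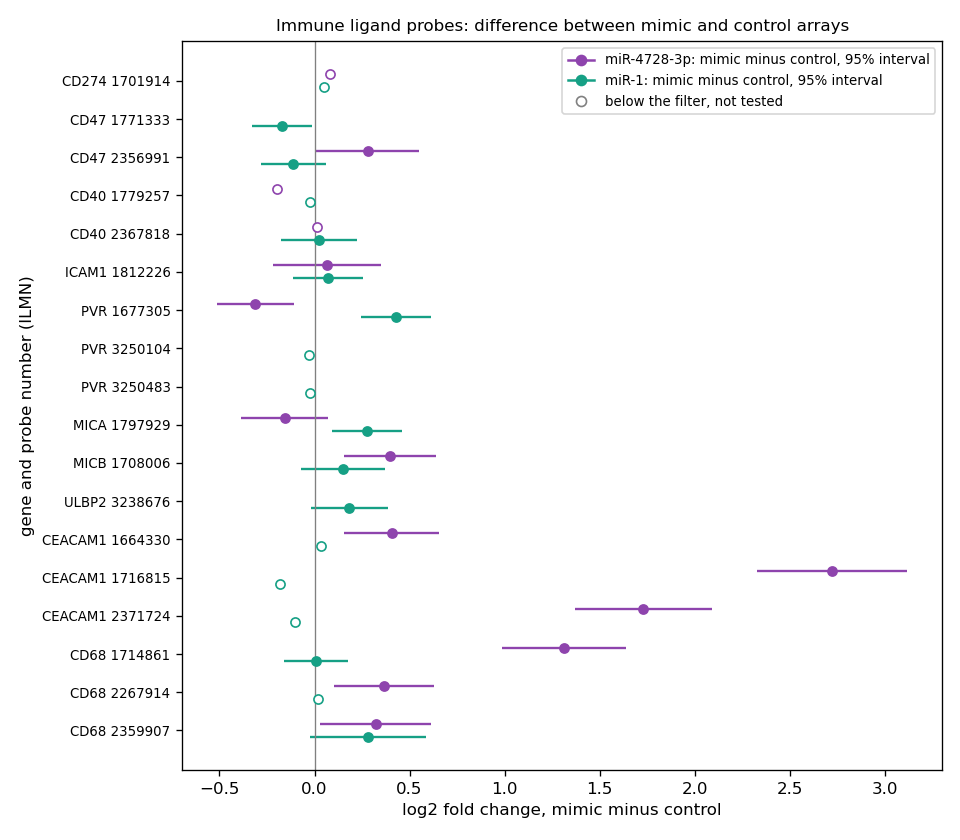
Log2 fold change, mimic minus control (x axis), of each probe for the 10 immune ligand genes (rows), for miR-4728-3p (purple) and miR-1 (green). Filled points are tested probes with the 95% interval as a line, and open points are probes below the filter on low values. The CEACAM1 probes ILMN_1716815 and ILMN_2371724 (2.72 and 1.73) and the CD68 probe ILMN_1714861 (1.31) lie far right for miR-4728-3p, and the PVR probe ILMN_1677305 lies on opposite sides of 0 for the 2 mimics. In the miR-1 experiment the CEACAM1 probes were at background in both groups, so their points there measure no effect.

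The genes around these ligands were taken from lists of other immune ligands, of proteins that process or shed ligands, of the counter-receptors of immune cells and of regulators. With miR-4728-3p, 8 of the 33 tested other ligands rose, 1 fell and 24 were not called by limma, beside 3.95% higher and 3.82% lower over all tested genes. The median log2 fold change of the list was 0.09 and that of all tested genes -0.02. TNFSF10, the death ligand TRAIL, read 10.30, 11.29, 9.48, 10.03, 10.70 and 9.82 with the mimic and 6.43, 6.18, 6.39, 6.49, 6.43 and 6.09 in controls (adjusted p = 3.08e-13, limma). All its control arrays were at or below the ceiling. With each control array at no less than its ceiling, the mean level of TNFSF10 with the mimic was 12.5-fold higher. That value leaves out the spread between arrays, so it is no lower bound. LGALS9 (galectin-9), a ligand of TIM-3, was 2.96-fold higher on the same reckoning (adjusted p = 1.28e-09, limma). TNFSF10 and LGALS9 passed the filter on low values although their control means alone did not. Genes tested by that route can only be higher with the mimic, so the count of 8 rests partly on it. HLA-E, the ligand of the NK receptor NKG2A, averaged 9.81 ± 0.37 with the mimic and 8.58 ± 0.26 in controls (SD, n = 6 each, log2 fold change 1.23, adjusted p = 2.14e-06, limma). BTN3A1, a butyrophilin sensed by gamma-delta T cells, averaged 7.64 ± 0.41 with the mimic and 6.68 ± 0.20 in controls (log2 fold change 0.97, adjusted p = 7.15e-05, limma), and 3 of its 6 control arrays exceeded the ceiling.

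Of the other ligands that rose, TNFRSF14, BTN3A3, BTN3A2 and NECTIN2 had log2 fold changes of 1.26, 0.91, 0.64 and 0.42. NECTIN1, an adhesion molecule of the nectin family like PVR, was the ligand that fell, with a log2 fold change of -0.44 (adjusted p = 0.00468, limma). TNFSF10 and HLA-E were highest on mimic arrays 2 and 5, as CEACAM1 and CD68 were.

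With miR-1, 3 of the 28 tested other ligands rose and 0 fell by limma (5 and 1 at an unadjusted p under 0.05), beside 1.45% higher and 1.24% lower over all 11898 tested genes, and the list median was 0.00. CD24, a ligand of Siglec-10, read 12.23, 11.96, 12.29 and 12.40 with the mimic and 11.48, 11.50, 11.61 and 11.40 in controls (log2 fold change 0.72, adjusted p = 0.0012, limma). VSIR (VISTA), an inhibitory checkpoint protein, read 6.84, 6.55, 6.53 and 6.62 with the mimic, against 6.12, 6.00, 6.06 and 5.89 in controls. All these controls were under the ceiling. With each control array at its ceiling, the mean level of VSIR was 1.29-fold higher, which is no lower bound either. The log2 fold change as measured was 0.62 (adjusted p = 0.00199, limma). VSIR passed the filter although its control mean alone did not, so the count of 3 rests partly on that route. TNFSF9, the ligand of 4-1BB, had a log2 fold change of 0.39 (adjusted p = 0.0389, limma). TNFSF10 and HLA-E were not called with miR-1 (log2 fold changes of 0.01 and 0.07, adjusted p of 0.972 and 0.804, limma).

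**Figure D5:**
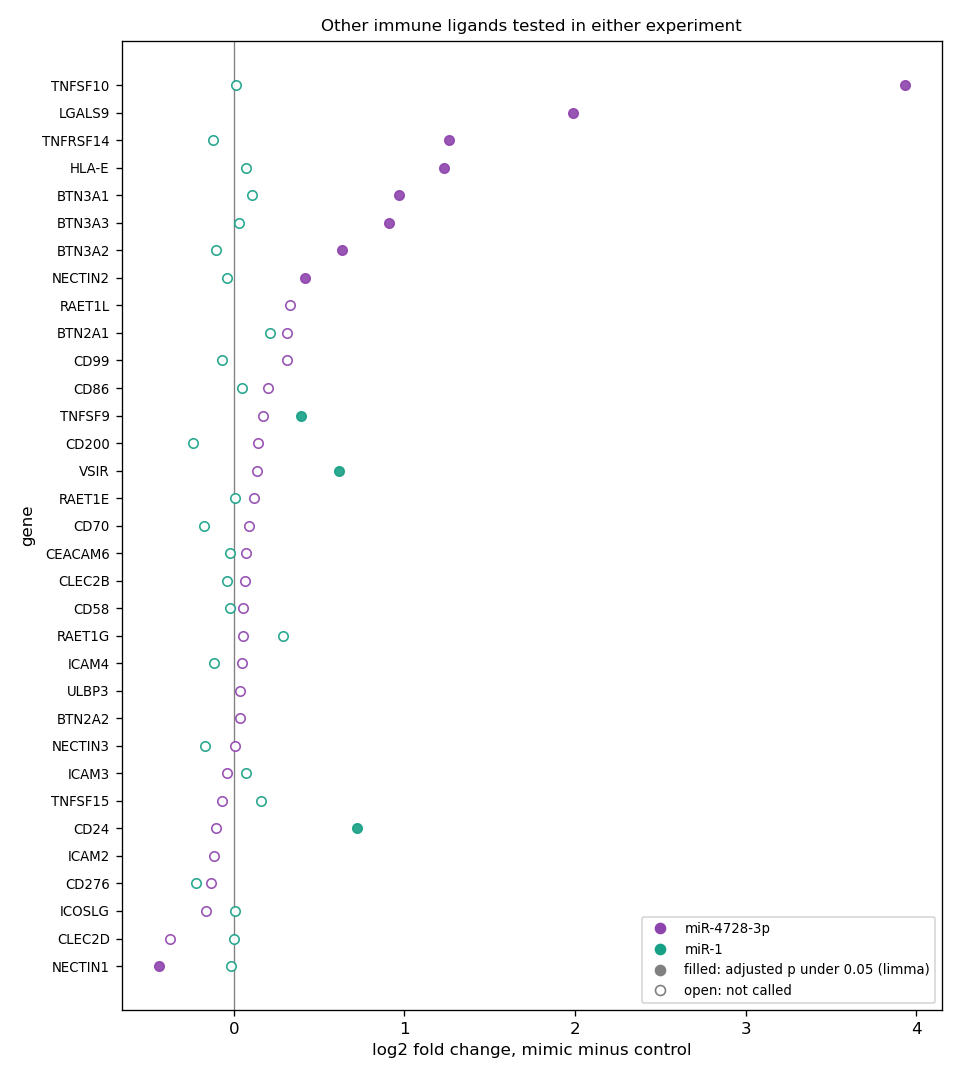
Log2 fold change, mimic minus control (x axis), of the other immune ligands tested in either experiment (rows, ordered by the miR-4728-3p value), for miR-4728-3p (purple) and miR-1 (green). Filled points have an adjusted p under 0.05 (limma), 8 higher and 1 lower for miR-4728-3p and 3 higher for miR-1, and open points were not called.

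Of 12 tested genes for processing and shedding, 0 rose with miR-4728-3p and 1 fell (0 and 2 at an unadjusted p under 0.05, limma). This was CMTM4, which stabilizes the CD274 protein together with CMTM6: it read 8.44, 8.76, 8.94, 8.77, 8.70 and 8.67 with the mimic and 9.37, 9.30, 9.14, 9.05, 9.08 and 9.32 in controls (log2 fold change -0.50, adjusted p = 0.00223, limma). Every mimic array was below every control array, as for 2.03% of all tested probes. Over all tested genes 3.95% were called higher and 3.82% lower with miR-4728-3p. With miR-1 the log2 fold change of CMTM4 was -0.08 (adjusted p = 0.787, limma), and 0 of 10 genes of this list were called there (0 at an unadjusted p under 0.05).

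Of 16 counter-receptor genes 14 had a probe, and 6 could be tested in the miR-4728-3p experiment and 5 in the miR-1 experiment. With miR-4728-3p 1 was called higher and 0 lower, beside 3.95% and 3.82% of all tested genes. With miR-1 0 were called higher and 1 lower, beside 1.45% and 1.24%. ITGB2, the beta chain of the leukocyte integrins that bind ICAM1, was higher with miR-4728-3p, at 9.39 to 9.86 (median 9.58) against 8.95 to 9.44 (median 9.15) in controls, with overlap (adjusted p = 0.0222, limma). SIRPA, the receptor of CD47, was lower with miR-1, at 8.51, 8.37, 8.48 and 8.52 against 8.88, 8.80, 8.85 and 8.66 in controls (log2 fold change -0.33, adjusted p = 0.0447, limma). With miR-4728-3p SIRPA gave -0.31 (adjusted p = 0.0983, limma).

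Of 12 tested regulators 3 rose with miR-4728-3p, 0 fell and 9 were not called (3 and 0 at an unadjusted p under 0.05), and 0 of 11 were called with miR-1 (1 higher and 1 lower at an unadjusted p under 0.05, limma). Over all tested genes 3.95% were called higher and 3.82% lower with miR-4728-3p, and 1.45% and 1.24% with miR-1. IRF9, the DNA-binding subunit of ISGF3, read 11.35, 11.53, 11.16, 11.03, 11.26 and 11.25 with the mimic and 9.03, 8.48, 8.64, 8.58, 8.82 and 9.05 in controls (log2 fold change 2.49, adjusted p = 5.12e-14, limma). IRF1, a factor that acts on CD274 and MHC genes, read 10.98 to 11.75 (median 11.29) with the mimic and 9.005 to 9.60 (median 9.17) in controls (log2 fold change 2.14, adjusted p = 2.18e-11, limma). JAK2, a kinase of the interferon-gamma receptor, had a log2 fold change of 0.56 with overlapping groups and 1 of 6 control arrays above the ceiling (adjusted p = 0.00504, limma).

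The RefSeq promoter windows of the members (a short window around the gene start, GRCh38.p14, found for 9 of the 10 genes) were searched on both strands for 3 motifs. The search was made after the rises of IRF9, IRF1 and CEACAM1 with miR-4728-3p were seen. It is no test of their cause. The motifs were the core of the interferon-stimulated response element (ISRE), GAAANNGAAA, which was in 3.57% of 35116 promoters, the gamma-activated sequence (GAS), TTCNNNGAA, in 7.66%, and an NF-kB pattern, GGGNNTTTCC, in 1.91%. ISRE cores were found in CEACAM1 and CD274, GAS in CD274 and ICAM1, and the NF-kB pattern as spelled here in none of the 9. Other spellings of NF-kB sites were not searched, so the windows are not shown to lack such a site. The stretches are shown with the matches in capitals, 5′ to 3′ on the strand of the gene.
CEACAM1, ISRE core: agaaagGAAAGAGAAAgtaagg
CD274, ISRE core: gacatgTTTCACTTTCTGTTTCatttct
CD274, GAS: gccgatTTCACCGAAggtcag
ICAM1, GAS: cgaggtTTCCGGGAAagcagc
The CEACAM1 match began 116 bases before the gene start (chr19:42528582-42528603, gene on the minus strand), and the CD274 stretch (chr9:5450328-5450355, plus strand) holds 2 overlapping matches on the reverse strand. With miR-4728-3p, CEACAM1 rose, whereas CD274 was not measurable above background. The windows of CD68 and MICB, which were also called higher, held none of the 3 patterns as spelled here. A match describes letters in a window, and binding was not measured. Whether any match bears on a change was not tested.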

How the data were processed

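MCF10A RNA was measured on Illumina HumanHT-12 bead arrays: 6 mimic and 6 control arrays for miR-4728-3p, 4 and 4 for miR-1. The methods name array version 4 for the miR-1 experiment and version 3 for the others, which the unequal probe numbers of both tables bear out, while the labels name version 3 throughout. The authors deposited unnormalized intensities per probe and, as an alternative used here, intensities they had normalized on the BASE server (method not given in the sources used here). Neither held detection p-values or control probes, so normexp and not neqc was used: normexp background correction with offset 50, quantile normalization within an experiment and log2, in limma 3.58.1 (R 4.3.3). Probes whose mean over all arrays of an experiment exceeded the median of all its values (6.36 and 6.17) were tested with lmFit and eBayes. The p-values were adjusted over all tested probes (Benjamini-Hochberg, threshold 0.05). Probe genes came from the platform annotation, updated to RefSeq symbols of GRCh38.p14: 27578 probes had 1 name, 13 several and 21212 none in the miR-4728-3p table, and 30113, 8 and 17202 in the miR-1 table. Arrays carry no count depth, and their number limits the precision. The methods call the replicates biological without saying how the cultures were separated, so the p-values measure the spread between these arrays. Chip and scan day were not given in the sources used here, so a batch could not be fitted. For a gene with several probes all are given, and for gene counts the brightest tested probe stands for the gene. Named list genes are those with the smallest p, up to 4 for each list, all where 4 or fewer passed, and for each called probe the gene with the most similar pattern. BTN3A2, BTN3A3, TNFRSF14, NECTIN1, NECTIN2, CEACAM6, CD14 and PTPRC were named after their values were seen. Basal epithelial, blood cell and endothelial marker lists were also counted. The members and lists were chosen with earlier results of these data known. Scripts were tested on simulated data. Alternatives were the authors' values, other background corrections, scalings and filters, a replicate block and leaving out each array. Python 3 libraries drew the figures.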

Additional observations from a re-analysis of the deposited data

Results flagged for a closer look

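Of 64 groups of arrays examined (1 probe in 1 group each), 8 held an array whose gap to the nearest of the others exceeded Dixon's 95% limit, and chance flags about 1 in 20 groups. In the miR-4728-3p experiment MICB was low on mimic 3, at 9.15 against 9.40 or more on the other mimic arrays, and CD68 ILMN_2359907 was low on control 3, at 7.62. The other 6 were all replicate 1 of a group of the miR-1 experiment. On mimic 1, CD47 ILMN_2356991 was low at 6.17, MICA was high at 8.18 and CEACAM1 ILMN_2371724 was low at 5.80. On control 1, CD47 ILMN_1771333 was high at 8.50, ULBP2 was high at 7.13 and CEACAM1 ILMN_1716815 was low at 5.87. The CEACAM1 values lie under the background ceiling. Without control 1 the ULBP2 log2 fold change was 0.27, and without mimic 1 that of MICA was 0.20, neither past the threshold.

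The effects of the 2 mimics differed by the test of the difference itself at 2 probes: PVR, at -0.74, and CD68 ILMN_1714861, at 1.30 (log2 fold change with miR-4728-3p minus that with miR-1).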

How the results depend on the processing

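CEACAM1 ILMN_1716815 and ILMN_2371724 and CD68 ILMN_1714861 were called under all 10 alternatives and all 12 fits without 1 array, at log2 fold changes of 2.32 to 3.27, 1.502 to 2.003 and 1.25 to 1.39 over the alternatives. Member probes called higher with miR-4728-3p fell to 3, against 5, with an offset of 16, with no filter and with the replicate block, and ranged from 3 to 5 without 1 array. Called lower was 1 (PVR) in place of 0 with the authors' values, no background correction, the filter at the 75th percentile and the filter on olfactory receptor probes, and 0 without any 1 array. Over all probes, 572 to 676 were higher and 449 to 598 lower without 1 array, beside 676 and 612. Median scaling gave 624 higher and 200 lower for miR-4728-3p, and 114 and 28 beside 252 and 192 for miR-1. With miR-1 an offset of 16 gave 159 and 113, the replicate block 103 and 52, and fits without 1 array 136 to 212 and 95 to 162. The PVR call of miR-1 left 0 member probes with median scaling and with the replicate block, 0 to 1 higher and 0 lower without 1 array. For the difference of the mimic effects, no filter gave 4 member probes beside 2 (CEACAM1 added, where the miR-1 arrays of both groups were at background), median scaling 404 probes beside 850, and fits without 1 array 2 member probes and 632 to 896 probes. The cause of the other shifts was not tested. Same-numbered arrays did not deviate together (correlations of -0.12 to 0.06 and -0.39 to 0.04, none the highest for its array), so the replicate block rests on numbers alone. No call changed direction. Members near the background ceiling in both groups (CD274, CD40, ICAM1, CD47 ILMN_2356991, CEACAM1 with miR-1) cannot show a fall, and their folds say little. Where only the controls lay near it, a fold was also given with each control array at no less than its ceiling.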
